A study of Rattus norvegicus with 6 samples.

Results

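Protein disulfide isomerases and the oxidases that serve them were followed in rat INS-1 insulinoma cells, which stand in for pancreatic β-cells, made to express a misfolding proinsulin. The 10 genes were P4hb, Pdia3, Pdia4, Pdia5, Pdia6, Txndc5, Txndc11, Creld2, Prdx4 and Ero1b, taken from a fixed list of names, and all 10 were found among the 12603 genes of the arrays. Each had 1 probeset with a single gene symbol except Pdia3, which had 2, so that 11 probesets carried the family. The cells were a single clone of INS-1 in which doxycycline (Dox) turns on a GFP fusion of insulin 2 carrying the Akita mutation, C96Y. In each of 2 independent experiments there was 1 array of cells given Dox with 4μ8c (5 μM), an inhibitor of the endoribonuclease of IRE1, 1 array of cells given Dox, and 1 array of untreated cells, which carry the same transgene uninduced. The sample labels give Dox at 4 μg/ml and treatment for 48 h, while the study's methods give a lower Dox concentration. Because every Dox-treated culture carried the transgene, effects of doxycycline itself and of mutant proinsulin cannot be told apart, and no array of cells with the inhibitor but without Dox was used here. As bulk RNA was measured, more mRNA per cell and more cells with the mRNA cannot be told apart either.

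Proinsulin folds in the lumen of the endoplasmic reticulum (ER), where its disulfide bonds are made by enzymes with a thioredoxin fold. Protein disulfide isomerases (PDIs) pass oxidizing power to the client through a pair of active-site cysteines, and rearrange bonds that were made wrongly. The reduced PDI is reoxidized by the ERO1 oxidases, which produce hydrogen peroxide, and the peroxiredoxin Prdx4 can use that peroxide to oxidize PDIs in turn. Many of these genes are known targets of the unfolded protein response (UPR), through ATF6, which acts at ER stress response elements (ERSE), or through XBP1, whose mRNA is spliced by IRE1 and which also acts at UPR elements (UPRE).

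The promoters are shown because most of the 10 genes moved together. RefSeq windows on rat build GRCr8 were held for 8 of the 10 genes, and Pdia3 and Pdia6 were not matched. They were searched on both strands, in 250 bases before and 50 bases after the annotated start, for ERSE (CCAAT, 9 free bases, CCACG), ERSE-II (ATTGG, 1 free base, CCACG) and UPRE (TGACGTGG). ERSE was found in 2 of the 8 windows, those of Creld2 and Ero1b, and in 0.0657% of all 33469 promoter windows. UPRE was found in 1 of the 8, that of Txndc11, and in 0.595% of all windows. ERSE-II was found in none of the 8 and in 0.0508% of all windows. The matches do not overlap each other, and a match is a description of letters, not a mapped site. The 3 windows with a match are printed 5′ to 3′ on the strand of the gene, from 250 bases before to 30 bases after the start, with the match in capitals. Creld2 lies at chr7:121789134-121789413 on the plus strand, Ero1b at chr17:92941432-92941711 on the plus strand and Txndc11 at chr10:5022214-5022493 on the plus strand. The ERSE letters run from -145 to -127 in Creld2 and from -224 to -206 in Ero1b, on the opposite strand in each, and UPRE spans the start of Txndc11, from -1 to 7. The windows of Creld2 and Ero1b lie around a start inside the annotated span of the gene, so that the annotation also begins further upstream.
Creld2: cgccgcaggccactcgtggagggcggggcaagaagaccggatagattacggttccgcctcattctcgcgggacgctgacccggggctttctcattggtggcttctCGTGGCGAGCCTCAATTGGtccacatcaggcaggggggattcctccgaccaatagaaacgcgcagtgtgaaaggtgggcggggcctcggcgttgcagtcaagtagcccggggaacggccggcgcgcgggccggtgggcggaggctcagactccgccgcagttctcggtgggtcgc
Ero1b: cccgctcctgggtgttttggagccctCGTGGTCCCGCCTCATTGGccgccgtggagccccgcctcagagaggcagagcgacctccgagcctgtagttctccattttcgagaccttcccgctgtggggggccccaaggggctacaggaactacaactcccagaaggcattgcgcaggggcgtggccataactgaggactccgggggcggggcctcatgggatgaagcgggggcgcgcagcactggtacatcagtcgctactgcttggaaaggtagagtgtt
Txndc11: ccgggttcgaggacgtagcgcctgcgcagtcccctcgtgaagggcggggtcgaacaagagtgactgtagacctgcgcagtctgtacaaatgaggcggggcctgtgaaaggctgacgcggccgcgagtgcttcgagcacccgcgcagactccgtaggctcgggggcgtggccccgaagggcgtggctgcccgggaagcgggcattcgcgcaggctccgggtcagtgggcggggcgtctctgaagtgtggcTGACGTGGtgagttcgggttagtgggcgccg

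The deposited values are RMA log2 values whose pattern is that of centring each probeset inside its own experiment, so that only differences between arrays of the same experiment can be read and no level can be given. The 3 arrays of experiment 1 had a median of exactly 0 in 100% of probesets, and those of experiment 2 in 0.836%. The array of Dox+4μ8c read exactly 0 in experiment 1 for 10 of the 11 probesets, which says only that it lay between the other arrays. Likewise, in experiment 2 the Dox+4μ8c and untreated arrays had equal values of opposite sign in 9 of the 11 probesets. The rule of the centring in experiment 2 is not given in the sources used here. The study's methods also name a treatment with 4μ8c alone, which was not used here, and whether it entered the centring is unknown. Dox replicate 2 stood apart by its SD over all probesets, 0.18, against 0.09 and 0.11 on the other arrays of experiment 2. In experiment 1, whose centring differs, the SD was 0.05 to 0.12. On Dox replicate 2, the 5′ to 3′ gap of the 4 poly-A spike-ins differed by a median of -0.40 from the untreated array of its experiment. The median was -0.28 on Dox+4μ8c replicate 2, against the same untreated array. In experiment 1 it was -0.09 with Dox and -0.02 with Dox+4μ8c. Which array of experiment 2 had the unusual gap cannot be told from these differences. For the rat Actb probesets the gap differed from untreated by 0.14 with Dox and 0.21 with Dox+4μ8c in experiment 1. In experiment 2 the Actb gap differed by -0.22 with Dox and -0.08 with Dox+4μ8c. For Gapdh the largest such difference was 0.03, with Dox in experiment 1. The part of these array features in the results was not tested beyond leaving each array out in turn. Without levels, the label of the line could not be checked by detection of its markers. Of 11 measured β-cell markers, 1 was lower with Dox+4μ8c and 3 with Dox than in untreated cells, and none was higher. Of all genes, 1.13% were lower with Dox+4μ8c and 2.01% with Dox. Of 3 measured markers of other islet cells, Gcg alone passed, at -1.36 with Dox+4μ8c and -2.22 with Dox against untreated, while none of 4 measured exocrine or stromal markers passed in any comparison. The part of these markers in the results was not tested.

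**Figure D1:**
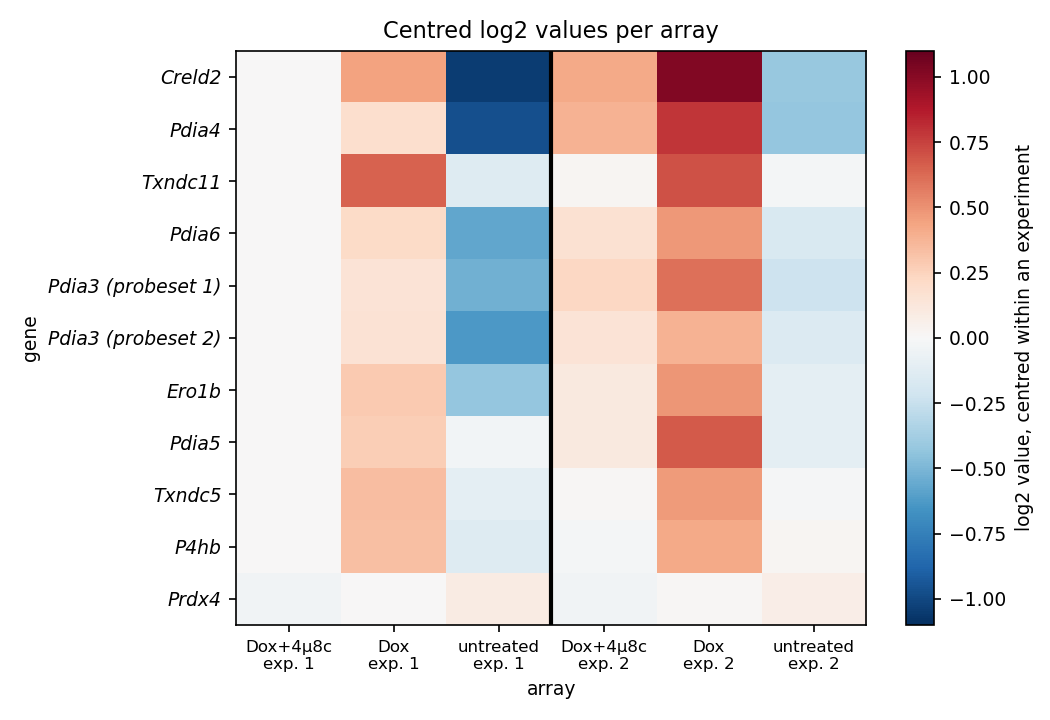
Centred log2 values (colour) of the 11 probesets of the 10 genes (rows) on the 6 arrays (columns), with experiment 1 left and experiment 2 right of the black line. Within each experiment the Dox array has the highest value in every row except that of Prdx4, where the untreated array is highest, and values can be compared only within an experiment.

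Of the 10 listed genes, all but Prdx4 were higher in Dox-treated cells. The list was chosen with earlier results of these data known. Outside it, 5 of 12 other ER thioredoxin-fold proteins and 2 of 7 listed ER oxidases and peroxidases were called higher, as given below. With Dox, 9 of the 10 genes were higher than in untreated cells by limma (adjusted p under 0.05 over all genes) and none was lower, where 4.42% of all genes were called higher and 2.01% lower. The 9 spanned the classical PDIs, the membrane-bound Txndc11, Creld2 and the oxidase Ero1b, and the exception was the peroxiredoxin Prdx4. Their median log2 change with Prdx4 included was 0.68, against 0.01 over all genes. At least 1.5 fold higher were 6 of the 10 genes, where 0.968% of all genes were. Log2 changes are means over the 2 experiments of the difference within each, with standard errors (SE) from limma.

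Creld2, an ER protein with EGF-like domains and CXXC motifs that is secreted under stress, showed the largest rise of the 10 genes. Its values (probeset 1377016_at) were 0.44 and 1.02 on the Dox arrays of experiments 1 and 2, against -1.04 and -0.42 on the untreated arrays. Dox was thus above untreated by 1.48 and 1.44 in experiments 1 and 2, a mean log2 change of 1.46 (SE 0.06, adjusted p = 0.000697) or 2.75 fold. Pdia4 (ERp72, 1370007_at), a PDI that forms complexes with other ER chaperones, came next. It had 0.19 and 0.79 on the Dox arrays, against -0.97 and -0.43 on the untreated arrays. Its log2 change was 1.19 (SE 0.06, adjusted p = 0.000972) or 2.27 fold, with 1.16 and 1.21 in experiments 1 and 2. These were the only members of the 10 that rose more than 2 fold. In neither experiment did the difference between Dox and untreated of another member reach theirs.

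A middle group rose by 1.57 to 1.69 fold. Txndc11 (1374185_at), a membrane-anchored thioredoxin-domain protein known as a partner of the DUOX oxidases, had 0.65 and 0.70 on the Dox arrays, against -0.15 and -0.02 on the untreated arrays. Its log2 change was 0.76 (SE 0.05, adjusted p = 0.0016). Pdia6 (P5, 1370859_at), which associates with the chaperone BiP, had 0.21 and 0.48 with Dox, against -0.57 and -0.16 in untreated cells, and changed by 0.71 (SE 0.07, adjusted p = 0.0036). Pdia3 (ERp57) acts on glycoproteins bound to calnexin and calreticulin. Its 2 probesets both rose, by 0.68 and 0.83 in experiments 1 and 2 for 1392920_at and by 0.79 and 0.53 for 1398788_at, which gave a log2 change of 0.71 (SE 0.06, adjusted p = 0.0031). Ero1b (1382944_at), the ERO1 oxidase that is enriched in pancreas and β-cells, had 0.29 and 0.48 with Dox, against -0.42 and -0.11 in untreated cells. It changed by 0.65 (SE 0.06, adjusted p = 0.0036), so that an oxidase stood among the isomerases it serves. The differences in experiments 1 and 2 were 0.79 and 0.73 for Txndc11, 0.78 and 0.64 for Pdia6, and 0.71 and 0.59 for Ero1b. Whether these genes differ from each other was not tested.

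The remaining classical members rose by less than 1.5 fold. P4hb (1367635_at), the PDI that gave the family its name and also a subunit of collagen prolyl 4-hydroxylase, had 0.34 and 0.42 with Dox, against -0.14 and 0.02 in untreated cells. Its log2 change was 0.44 (SE 0.06, adjusted p = 0.0106). Txndc5 (ERp46, 1371391_at), a lumenal protein with several thioredoxin domains, had 0.34 and 0.47, against -0.11 and -0.01, a change of 0.47 (SE 0.05, adjusted p = 0.0057). Pdia5 (PDIR, 1374828_at) was the least even member. It had 0.27 and 0.67 with Dox, against -0.03 and -0.11 in untreated cells, so that its difference was 0.30 in experiment 1 and 0.78 in experiment 2, and its mean of 0.54 had the largest SE of the 10 (0.11, adjusted p = 0.0384). With untreated replicate 2 left out Pdia5 did not pass (log2 change 0.37, adjusted p = 0.19), nor with either Dox+4μ8c array left out (0.097). It passed at a log2 change of 0.35 without Dox replicate 2. P4hb and Txndc5 did not pass without untreated replicate 1 (log2 changes 0.37 and 0.46, adjusted p = 0.076 and 0.053). The count of 9 became 4 without the term for the experiment (P4hb, Txndc5, Txndc11 and Ero1b passed) and 4 with quantile normalization (Pdia3, Pdia6, Creld2 and Ero1b passed).

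Prdx4 (1387891_at), the peroxiredoxin of the ER, did not share the rise. It had 0.00 and 0.01 on the Dox arrays, against 0.09 and 0.07 on the untreated arrays. Its log2 change was -0.08 (SE 0.05, adjusted p = 0.41), with a 95% interval from -0.19 to 0.03. A rise of the size seen in any other member lies outside that interval. The interval rests on 1 probeset without a signal level, and whether that probeset can follow a rise was not tested. The untreated array was the highest of the 3 in each experiment, by a small margin.

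**Figure D2:**
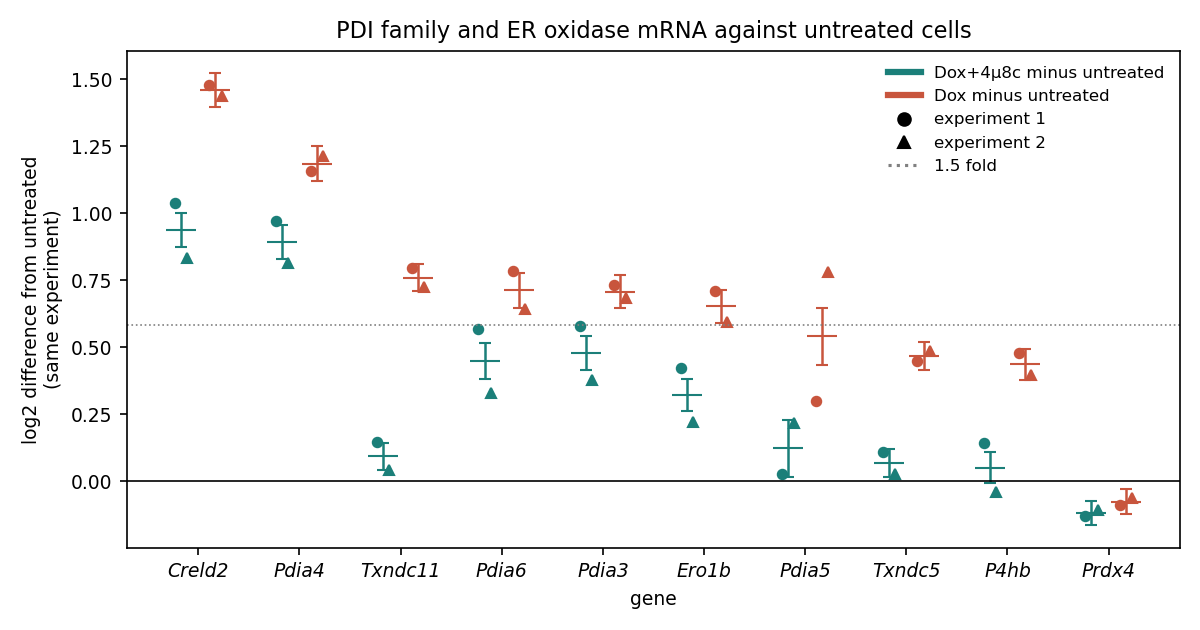
Log2 difference from untreated cells of the same experiment (vertical axis) for the 10 genes (horizontal axis), for Dox+4μ8c (green, left) and Dox (red, right), with circles for experiment 1, triangles for experiment 2, and bars for the mean ± SE from limma. Creld2 and Pdia4 lie above the dotted 1.5 fold line under either treatment, and Prdx4 lies just below 0 throughout. With Dox+4μ8c, Txndc11, Txndc5 and P4hb have means near 0, and Pdia5 lies at 0.03 and 0.22 in experiments 1 and 2.

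With the IRE1 inhibitor present, the log2 changes of the 10 genes ran from -0.12 to 0.94 against untreated cells, with a median of 0.22 (0.00 over all genes). Against untreated cells, 4 of the 10 genes were higher with Dox+4μ8c by limma and none was lower, where 1.17% of all genes were called higher and 1.13% lower. They were Creld2, Pdia4, Pdia3 and Pdia6, and only Creld2 and Pdia4 (2 of 10, against 0.302% of all genes) were at least 1.5 fold above untreated. Creld2 had 0.00 and 0.42 on the Dox+4μ8c arrays, against the untreated values of -1.04 and -0.42, a log2 change of 0.94 (SE 0.06, adjusted p = 0.0048) or 1.91 fold. Pdia4 had 0.00 and 0.39, against -0.97 and -0.43, a change of 0.89 (SE 0.06, adjusted p = 0.0057) or 1.86 fold. Pdia3 changed by 0.48 (SE 0.06, adjusted p = 0.0222) and Pdia6 by 0.45 (SE 0.07, adjusted p = 0.0312), and for all 4 genes the difference had the same sign in each experiment. Ero1b was between the groups, with 0.42 and 0.22 in experiments 1 and 2, a mean of 0.32 (SE 0.06) that missed the threshold (adjusted p = 0.059).

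For the other 5 genes the difference between Dox+4μ8c and untreated did not pass the test. Txndc11, which had risen 1.69 fold with Dox, was at 0.09 (SE 0.05, adjusted p = 0.45), with differences of 0.15 and 0.04 in experiments 1 and 2 and a 95% interval from -0.03 to 0.21. Txndc5 was at 0.07 (95% interval -0.06 to 0.19), P4hb at 0.05 (-0.09 to 0.19) and Pdia5 at 0.12 (-0.14 to 0.38). In experiment 2 the Dox+4μ8c array of P4hb lay slightly below the untreated array, by -0.04. Prdx4 was at -0.12 (SE 0.05, unadjusted p = 0.040 and adjusted p = 0.29 by limma), lower in 2 of 2 experiments.

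The number of these calls changed with the fit, the scaling and the arrays used. Leaving out 1 array also leaves 1 residual degree of freedom in place of 2, so that a lost call is not by itself a smaller difference. The count of 4 became 0 without the term for the experiment and 1 without untreated replicate 1, where Creld2 alone passed. It was 1 (Pdia3) with quantile normalization and 2 (Creld2 and Pdia4) with single probesets. It was 0 without Dox+4μ8c replicate 1, 2 without Dox+4μ8c replicate 2 or untreated replicate 2, and 5 with either Dox array left out, where Ero1b also passed (adjusted p = 0.021). Over all alternatives the log2 change lay between 0.81 and 1.03 for Creld2 and between 0.35 and 0.54 for Pdia6.

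Dox+4μ8c was set against Dox to ask how the rise differed when the inhibitor was present, and effects of 4μ8c other than on IRE1 cannot be told apart here. The means of all 10 genes were below those of Dox when 4μ8c was added, and 4 genes were lower by limma, where 1.61% of all genes were. At an unadjusted p under 0.05, 9 of the 10 were lower, where 8.44% of all genes were. The median difference of the 10 was -0.36, against -0.01 over all genes. Txndc11 had 0.00 and 0.02 on the Dox+4μ8c arrays, against 0.65 and 0.70 on the Dox arrays, and fell most, with a log2 difference of -0.67 (SE 0.05, adjusted p = 0.0129). Creld2 differed by -0.52 (SE 0.06, adjusted p = 0.021), with -0.44 and -0.61 in experiments 1 and 2. Txndc5 differed by -0.40 (SE 0.05, adjusted p = 0.0236) and P4hb by -0.39 (SE 0.06, adjusted p = 0.0361). In all 4 the array with 4μ8c lay below the Dox array in each experiment.

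For the other 6 genes the difference did not pass. Pdia5 was at -0.42 (SE 0.11, adjusted p = 0.17), with -0.27 and -0.56 in experiments 1 and 2. Ero1b was at -0.33 (SE 0.06, adjusted p = 0.064), Pdia4 at -0.29 (SE 0.06, adjusted p = 0.105), Pdia6 at -0.26 (SE 0.07, adjusted p = 0.158) and Pdia3 at -0.23 (SE 0.06, adjusted p = 0.191). Their 95% intervals all lay below 0 before adjustment, from -0.45 to -0.14 for Pdia4 and from -0.38 to -0.08 for Pdia3. The missed threshold therefore does not show that 4μ8c left Pdia3, Pdia4 and Pdia6 unaltered. Prdx4 was at -0.04 (95% interval -0.15 to 0.07), and its values of -0.04 and -0.04 with Dox+4μ8c stood against 0.00 and 0.01 with Dox.

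The 4 lower calls became 0 without Dox+4μ8c replicate 1 or replicate 2 and 2 (Txndc5 and Txndc11) without the term for the experiment. They became 0 with quantile normalization and 0 with single probesets, where the adjusted p of Txndc11 was 0.059. Without Dox replicate 2, the array that stood apart, they became 3, as P4hb then had an adjusted p of 0.066. Without Dox replicate 1 they became 6, as Pdia4 (adjusted p = 0.027) and Pdia5 (adjusted p = 0.0050) were added. The differences of all 10 genes stayed below 0 under every alternative run, but with quantile normalization they shrank to -0.19 for Creld2, -0.05 for Pdia4, -0.09 for Pdia3, -0.13 for Pdia6, -0.24 for Pdia5 and -0.19 for Ero1b. Pdia5 was at -0.22 without Dox replicate 2, and Pdia3 at -0.14 without Dox+4μ8c replicate 2.

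**Figure D3:**
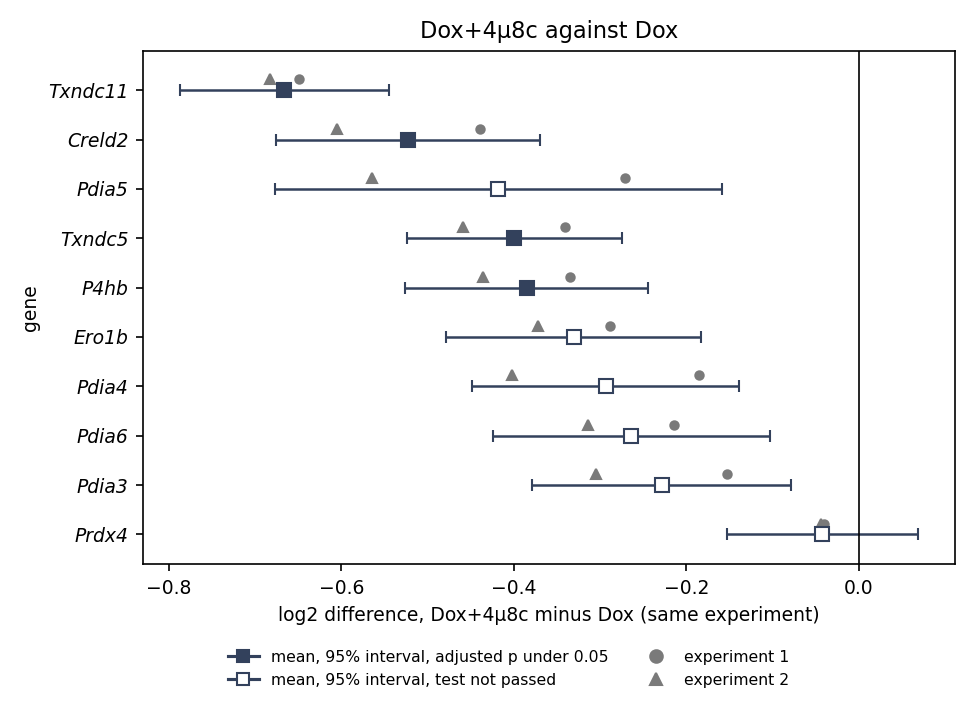
Log2 difference between Dox+4μ8c and Dox arrays of the same experiment (horizontal axis) for the 10 genes (vertical axis), with squares and lines for the mean and its 95% interval from limma, filled where the adjusted p was under 0.05, and grey circles and triangles for experiments 1 and 2. Every mean lies left of 0, from -0.67 for Txndc11 to -0.04 for Prdx4, and only the interval of Prdx4 reaches 0.

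Within each experiment the 3 arrays of a gene could be put in order. For 8 of the 10 genes the order was the same in each experiment, with Dox highest, Dox+4μ8c between and untreated lowest, an order that 6.4% of all genes showed in each experiment. Taken singly, 9 of the 10 showed it in experiment 1 (12.8% of all genes) and 8 in experiment 2 (24.7%). A probeset with tied arrays cannot show a strict order. In experiment 1, 57.2% of all probesets were tied on at least 2 arrays, and none of the family's was. The shares over all genes in experiment 1 and in both experiments are lowered by these ties, so the members' excess over them is overstated. The exceptions were P4hb, where Dox+4μ8c was lowest in experiment 2, and Prdx4, where untreated was highest and Dox+4μ8c lowest. Since experiment 1 places Dox+4μ8c at its centre value in 9 of the 10 genes, the size of the steps on either side tells the members apart. In Pdia4 the step between untreated and Dox+4μ8c was 0.97 and that between Dox+4μ8c and Dox was 0.19 (as a size, the difference being -0.19), whereas in Txndc11 these steps were 0.15 and 0.65 (-0.65). Creld2 had 1.04 and 0.44 (-0.44), with a large step on each side.

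Pairs of members followed each other closely over the 4 differences from untreated (Dox and Dox+4μ8c in each of 2 experiments). By Euclidean distance on the log2 scale, Pdia3 and Pdia6 were 0.08 apart and P4hb and Txndc5 0.12 apart, compared with 2.64 for Creld2 and Prdx4, the widest pair. Among all genes, the nearest to P4hb were Kdelr2, which retrieves escaped ER proteins (distance 0.05), and Arl1, a Golgi GTPase (0.06). Nearest to Txndc5 were Krtcap2 of the oligosaccharyltransferase (0.04) and Cptp, a ceramide-1-phosphate transfer protein (0.05). Slc30a7, a Golgi zinc transporter, and Amigo3 were nearest to Txndc11 (0.09 and 0.16). Nearest to Pdia3 were Pck2, the mitochondrial PEP carboxykinase (0.03), and Creb3l1, an ER-bound transcription factor (0.07), and Pck2 was also nearest to Pdia6 (0.06). Pdia4 lay nearest to Manf, a secreted ER stress protein (0.20), and to the amino acid transporter gene Slc1a4 (0.26), which was also nearest to Creld2 (0.21). Ero1b lay nearest to Cdk2ap2 (0.10) and to the ER chaperone gene Hyou1 (0.11), and Pdia5 to Timp1 (0.19) and Stap2 (0.23). The profiles share the untreated arrays, and distances are given as a description.

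Of 12 other measured thioredoxin-fold proteins of the ER, 5 were higher with Dox than in untreated cells and none was lower, where 4.42% of all genes were higher. No test of a difference between lists was made. The largest change was that of Pdia2, the pancreatic PDI, at 0.42 with Dox+4μ8c (SE 0.09, adjusted p = 0.0835) and at 1.12 with Dox (SE 0.09, adjusted p = 0.0025), a difference of -0.69 between them (adjusted p = 0.0253). Erp44, which retains Ero1 oxidases in the early secretory pathway, was at 0.21 with Dox+4μ8c (SE 0.05, adjusted p = 0.11) and at 0.65 with Dox (SE 0.05, adjusted p = 0.0024). Erp29, a lumenal relative without redox activity, was at 0.25 (SE 0.05, adjusted p = 0.0359) with Dox, and Txndc12 and Txndc16 also passed, at 0.26 and 0.39. With Dox+4μ8c none of the 12 passed against untreated. Set against Dox, 4 of the 12 were lower with Dox+4μ8c, where 1.61% of all genes were. They were Pdia2, Erp44 (-0.44), Erp29 (-0.39) and Dnajc10 (-0.38, adjusted p = 0.0294), the reductase ERdj5, whose value with Dox was 0.22 (adjusted p = 0.067). The membrane-bound Tmx1, Tmx2, Tmx3 and Tmx4 had log2 changes of 0.15, 0.09, -0.02 and -0.04 with Dox, none past the test. Pdia2 and Erp44 are among the genes that the study itself listed as induced on these arrays, as are Creld2, Pdia4, Txndc11, Pdia6 and Pdia3, so that their direction is not independent evidence.

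Among the 7 genes listed as other oxidases and peroxidases of the ER, 2 were higher with Dox, where 4.42% of all genes were. They were Vkorc1 and Vkorc1l1, the vitamin K epoxide reductases, at 0.38 (SE 0.05, adjusted p = 0.0118) and 0.25 (SE 0.05, adjusted p = 0.0305). Ero1a, the widely expressed relative of Ero1b, was at -0.06 with Dox+4μ8c and at -0.02 with Dox (SE 0.06, adjusted p = 0.87), where Ero1b was at 0.32 with Dox+4μ8c and at 0.65 with Dox. The glutathione peroxidases Gpx7 and Gpx8 were at 0.09 and 0.03 with Dox. The sulfhydryl oxidases Qsox1 and Qsox2 were at -0.02 and 0.12 with Dox, and none of these passed the test. Whether each listed protein resides in the ER was not checked. The difference between Dox+4μ8c and Dox passed for Vkorc1l1 alone (-0.34, SE 0.05, adjusted p = 0.0268), where 1.61% of all genes were lower. Prdx4 and both glutathione peroxidases, which use peroxide in disulfide formation, had no call. Where 4.42% of all genes were called higher, no call among so few genes is not by itself a result about them. Their difference from Ero1b was not tested.

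Relatives outside the ER showed no call in any of the 3 comparisons. Over all genes, 4.42% were called higher and 2.01% lower for Dox against untreated. The shares were 1.17% and 1.13% for Dox+4μ8c against untreated, and 0.175% and 1.61% for Dox+4μ8c against Dox. With shares this small, the absence of a call among so few genes is not a result about them. Of 12 measured peroxiredoxins, thioredoxins and their reductases in cytosol and mitochondria, none passed by limma, and 1, 4 and 3 had an unadjusted p under 0.05 for Dox against untreated, Dox+4μ8c against untreated and Dox+4μ8c against Dox, where 19.6%, 15.4% and 11.2% of all genes did. Txn1, the cytosolic thioredoxin, was the second nearest gene to Prdx4 over the 4 differences (distance 0.02, after Arnt at 0.01).

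Known partners of the family divided by partner. Hspa5 (BiP), which binds Pdia6 and ERdj5, was at 0.66 with Dox+4μ8c (SE 0.09, adjusted p = 0.0251) and at 0.70 with Dox (SE 0.09, adjusted p = 0.0093), with a difference of -0.04 between them (adjusted p = 0.90). Calnexin (Canx) and calreticulin (Calr), the lectins that bring glycoproteins to Pdia3, were at 0.48 and 0.39 with Dox+4μ8c (adjusted p = 0.0477 and 0.0301) and at 0.53 and 0.57 with Dox (adjusted p = 0.0177 and 0.0043). In contrast, P4ha1, a catalytic subunit of the prolyl 4-hydroxylase that contains P4hb, was at -0.33 with Dox+4μ8c (SE 0.06, adjusted p = 0.0456) and at -0.10 with Dox (adjusted p = 0.39). P4ha2 and P4ha3 were at 0.12 and 0.01 with Dox and did not pass. Against untreated, 3 of 8 measured partners were higher with Dox, where 4.42% of all genes were. With Dox+4μ8c, 3 were higher and 1 lower than in untreated cells, where 1.17% and 1.13% of all genes were. None differed past the test between Dox+4μ8c and Dox, where 0.175% of all genes were higher and 1.61% lower.

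**Figure D4:**
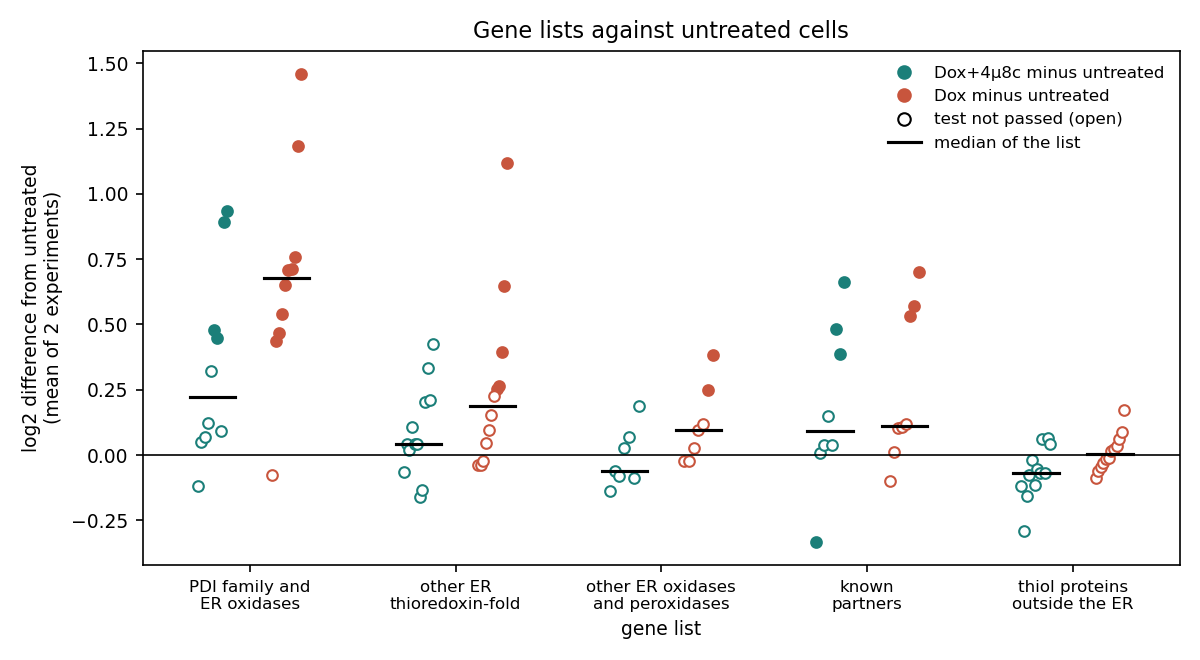
Mean log2 difference from untreated cells (vertical axis) of each measured gene in 5 lists (horizontal axis), for Dox+4μ8c (green, left) and Dox (red, right), filled where the adjusted p by limma was under 0.05, with a black line at the median of the list. The median with Dox is 0.68 in the PDI family and ER oxidases, 0.19 in the other ER thioredoxin-fold proteins and 0.00 in the thiol proteins outside the ER.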

How the data were processed

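From 200 ng of total RNA per culture (label value), arrays of Affymetrix rat probesets were made, and 6 were analysed here. The authors deposited RMA log2 values (RMA is named in the submitters' processing notes) whose pattern is that of centring per probeset, by a rule inferred from the values. Its version, and how the 25476 probesets were selected, are not given in the sources used here. In experiment 1, 25.5% of probesets had the same value on all 3 arrays. GEO's platform annotation gave 1 symbol to 17978 probesets, several to 378 and none to 7068, beside 52 control probesets. Probesets with 1 symbol were averaged per symbol, without a filter, since centred values hold no signal level. Arrays with the same labelled replicate number were treated as 1 experiment. The basis is the study's description of 2 independent experiments and the centring, which follows the numbers (median 0 in 100% and 0.836% of probesets). The number of arrays limits the precision, and intervals are at 95%, not adjusted.

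Tests used lmFit and eBayes of limma 3.58.1 (R 4.3.3, two-sided), with 3 groups and the experiment as terms, 2 residual degrees of freedom, and Benjamini-Hochberg adjustment over the 12603 genes of each comparison. The fit was tested on simulated data. With cultures of 1 clone, p-values measure only the spread between these samples. Alternatives were the fit without the experiment term, other scalings and probeset summaries, single probesets, array weights, robust eBayes and each array left out. One more, without the tied probesets, was added after seeing the data. Named genes were the 10 members, up to 4 genes of each other list by smallest p, and the 2 genes nearest to each member that passed. Erp29, Txndc12, Txndc16, Ero1a, Gpx7, Qsox2, the Tmx genes, P4ha2, P4ha3, Arnt and Txn1 are partly or wholly outside that rule and were named after their values were seen. Gcg, Mafa, Pcsk2, Iapp, Ins1 and Ins2 were picked from the marker lists, also outside that rule. The members and lists were chosen with earlier results of these data known. Symbols came with RefSeq's GRCr8 gene table (17923 of 17978 probesets had a matching gene ID). Python 3.11.15, pandas 2.3.3, numpy 2.4.6 and matplotlib 3.10.9 were used for counts and figures.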

Additional observations from a re-analysis of the deposited data

How the results depend on the processing

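Counts of the 10 genes called were 9 higher (Dox against untreated), 4 higher (Dox+4μ8c against untreated) and 4 lower (Dox+4μ8c against Dox), and of the other 4 lists together 10, 3 and 5. Without the replicate block (the experiment term) they became 4, 0 and 2, and 4, 0 and 2. With quantile normalization, which forces 1 spread on all centred arrays, they became 4, 1 and 0, and 4, 2 and 0. With single probesets they became 8, 2 and 0, and 7, 0 and 0. Leaving out 1 array gave 7 to 9, 0 to 5 and 0 to 6 genes of the family, and 4 to 10, 0 to 5 and 0 to 5 of the lists. The lone array then left in a group is assumed to vary like the other groups. Median centring, the median over probesets, leaving out cross-matching or tied probesets, array weights and robust eBayes changed none of these 6 counts by more than 1.5 times (array weights gave 5 for Dox+4μ8c against untreated, and 8, 4 and 5 for the lists). Array weights came out equal for the 2 arrays of a group, so that they could not weigh down a single array. Over all genes, the alternatives gave 119 to 1104 higher calls for Dox against untreated (557 as reported), 0 to 318 higher for Dox+4μ8c against untreated (148) and 0 to 580 lower for Dox+4μ8c against Dox (203).

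Single log2 changes kept their sign except those of P4hb and Pdia5 for Dox+4μ8c against untreated. For Dox+4μ8c against untreated, leaving out 1 array gave -0.0198 to 0.12 for P4hb (-0.0198 without Dox+4μ8c replicate 1 and -0.0152 without untreated replicate 1) and -0.0447 to 0.29 for Pdia5 (-0.0447 without untreated replicate 2), none of these negative values called. The cause of these changes was not tested.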

Other observations

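In experiment 1, 57.2% of all probesets had the same value on at least 2 of the 3 arrays and 25.5% on all 3, against 0.0039% on all 3 in experiment 2. None of the 11 probesets of the family had such a tie. With the probesets tied on all 3 arrays left out, 10318 genes were tested, and the counts of the 10 genes called stayed at 9, 4 and 4. Of the β-cell markers, Mafa, a β-cell transcription factor, was at 0.06 with Dox+4μ8c (adjusted p = 0.76) and at -0.56 with Dox (SE 0.07, adjusted p = 0.0090), both against untreated, with a difference of 0.62 between them (adjusted p = 0.0189). No other of the 11 markers passed that comparison by limma, in which the disulfide genes that passed were lower. Pcsk2, a proinsulin-processing convertase, was at -0.36 with Dox+4μ8c (adjusted p = 0.0453) and at -0.50 with Dox (adjusted p = 0.0075). Iapp was at -0.23 with Dox+4μ8c (adjusted p = 0.0835 by limma) and at -0.25 with Dox (adjusted p = 0.0408). Ins1 and Ins2 had log2 changes of -0.03 and -0.13 with Dox (adjusted p = 0.74 and 0.21), and whether their probesets also read the transgene was not tested. Markers were chosen with earlier results known, and their part in the results on the disulfide genes was not tested.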
